A study of Mus musculus with 2 samples.

Results

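STO feeder fibroblasts are the mouse fibroblast line on which cultured spermatogonial stem cells are grown, and a small number of them was captured with the germ cells in droplet single-cell RNA sequencing. They were selected on 2 transcripts: a barcode with at least 2000 genes and at most 20% of its UMIs (unique molecular identifiers, which count captured RNA molecules) in mitochondrial genes was taken as a feeder cell when Vim plus S100a6 reached 40 UMIs. This rule chose 94 of 8788 kept barcodes. The cultures held established THY-1+ germ cells from the testes of male C57 LacZ pups, plated on STO feeders (SNL76/7). They were at passages 9 to 12 per the labels, and at passage 12 per the study's methods for this experiment. For 48 h they received 20 ng/ml FGF9 (FGF9-treated, 1 library) or albumin as vehicle with 0 ng/ml FGF9 (control, 1 library). Before that both cultures grew, per the labels, with GDNF (20 ng/ml), GFRA1 (150 ng/ml) and FGF2 (1 ng/ml), and the study describes a change to medium without these at the start of treatment. Clumps of germ cells were pipetted off the feeder layer and passed through a filter, so the feeder cells measured here are those that came away with the clumps. The sources used here do not say whether the feeders were arrested before use.

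Feeder layers anchor spermatogonia and give them matrix and soluble factors. Fibroblasts build a matrix of fibrillar collagens, small proteoglycans and glycoproteins, cross-link it with lysyl oxidases and remodel it with metalloproteinases. FGF9 is a secreted growth factor that binds FGF receptors with heparan sulphate as cofactor and acts in part through the ERK kinases, which induce genes such as Dusp6, a phosphatase that switches ERK off, and the ETS factors Etv1, Etv4 and Etv5.

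In the FGF9-treated library 63 of 4600 kept barcodes were feeder cells (1.37%, exact binomial 95% interval 1.05 to 1.75), against 31 of 4188 in the control library (0.740%, interval 0.503 to 1.05). Each treatment rests on 1 library, so nothing here was tested between treatments, and the intervals reflect counting error alone and leave out differences between cultures. The number of feeder cells in a culture and the part of the layer lifted with the clumps cannot be told apart. The threshold fell in a wide gap. The lowest feeder cell held 40 Vim plus S100a6 UMIs in the FGF9-treated library and 41 in the control library, and the highest other kept barcode held 22 in each. A further 7 FGF9-treated and 2 control barcodes reached 40 UMIs with under 2000 genes and were not used.

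**Figure D1:**
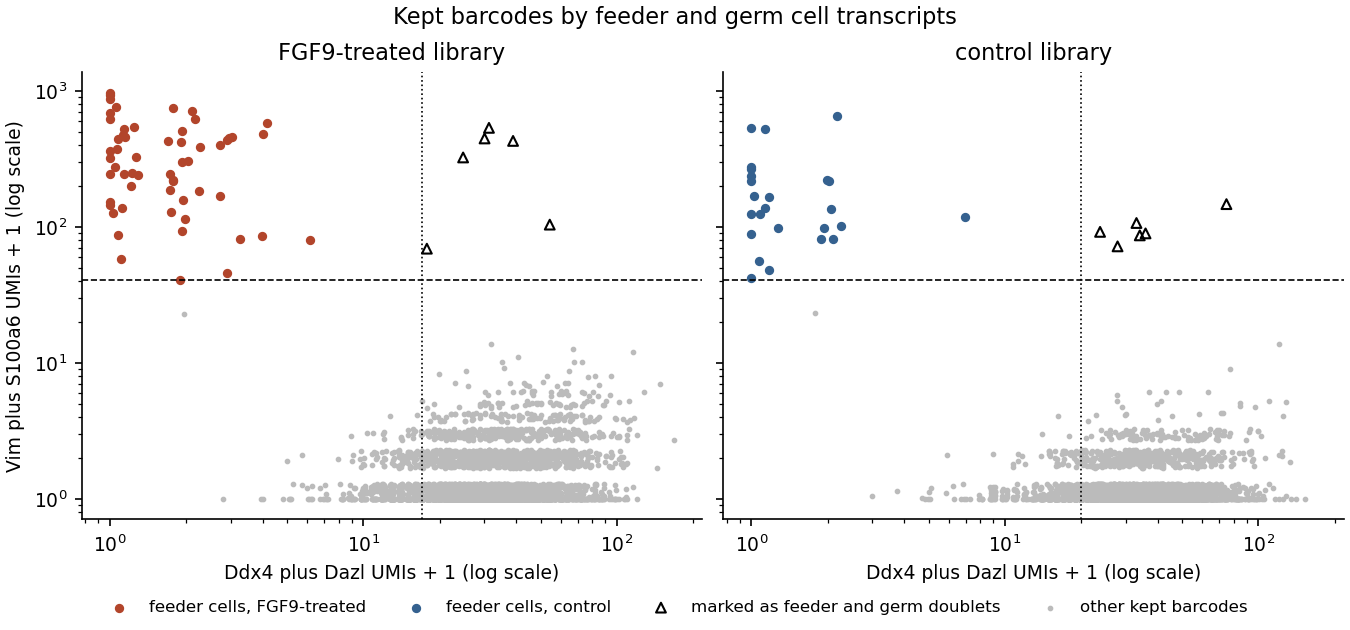
Vim plus S100a6 UMIs (vertical) against Ddx4 plus Dazl UMIs (horizontal) in every kept barcode, both plus 1 on log scales, with small random shifts to separate points. The dashed line marks 40 UMIs of Vim plus S100a6 and the dotted line the germ threshold (16 UMIs FGF9-treated, 19 control). The 94 feeder cells stand above a gap, and the 12 marked doublets (triangles) lie to the right of the dotted line.

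Ddx4, an RNA helicase, and Dazl, an RNA-binding protein, are transcribed in germ cells, and their summed UMIs marked likely feeder and germ cell doublets. A feeder cell was marked when this sum reached the 10th percentile of the other kept barcodes of its library, 16 UMIs in FGF9-treated and 19 in control. In each library 6 feeder cells were marked, which is 9.52% of the FGF9-treated (interval 3.58 to 19.6) and 19.4% of the control feeder cells (interval 7.45 to 37.5). The 2 kinds were far apart. Marked cells held 17 to 53 Ddx4 plus Dazl UMIs in the FGF9-treated and 23 to 74 in the control library, and unmarked cells held 0 to 5 and at most 6. Marked cells were also deep, with a median of 39570 UMIs in FGF9-treated and 31227 in control, against medians of 25308 and 19048 in unmarked feeder cells of the same libraries. Of the 12 marked cells 11 carried collagen transcripts. The exception was the deepest, a control barcode with 55412 UMIs, 74 Ddx4 plus Dazl UMIs, 146 Vim plus S100a6 UMIs and 0 of Col1a1, Col1a2 and Col3a1.

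That left 82 unmarked feeder cells. In 5 of them (3 FGF9-treated, 2 control) the UMIs of the 3 fibrillar collagen genes did not pass the 99th percentile of other kept barcodes, which was 2 UMIs in FGF9-treated and 3 in control. Both such control cells had under 1% mitochondrial UMIs, and one held 523 Vim plus S100a6 UMIs with 1 collagen UMI. The remaining 77 cells, 54 FGF9-treated and 23 control, gave the levels below. Their UMIs were summed per library (1595784 in FGF9-treated, 439574 in control) and expressed as CPM (a gene's UMIs over all UMIs of the sum, scaled to a common total). FGF9-treated cells were deeper, with a median of 26353 UMIs and 5178 genes, against 17301 UMIs and 4411 genes in control. Mitochondrial shares were close, with medians of 3.99% and 4.14%. They were compared with 4101 FGF9-treated and 3775 control germ cells, the other kept barcodes at or over the germ threshold. The libraries shared 11 barcode sequences, none of them that of a feeder cell.

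Markers that the Vim and S100a6 rule did not use were those of a fibroblast. Col3a1, a fibrillar collagen chain that also entered the choice of the 77 cells, had 1197 CPM in FGF9-treated feeder cells and 1765 CPM in control feeder cells, against 0.787 and 0.344 CPM in the germ cells of the same libraries. The small proteoglycan Dcn (decorin) had 1233 CPM in FGF9-treated and 1272 CPM in control feeder cells, and Bgn (biglycan) had 1159 and 874 CPM; in germ cells neither passed 0.567 CPM. Per cell, Col3a1 ran from 0 to 7016 CPM with a median of 682 in FGF9-treated cells, and from 0 to 8572 CPM with a median of 1944 in control cells. Of the study's own feeder markers, Thy1 had 73.3 CPM in FGF9-treated and 63.7 CPM in control, Acta2 (smooth muscle actin) had 15.7 and 43.2 CPM, and no UMI of Sox7 was found in either library.

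Markers of macrophages, Leydig cells and endothelial cells were mostly at 0. Most genes of the peritubular myoid and Sertoli lists had UMIs, and some had a level of their own. Of 9 macrophage genes 6 had no UMI in either library, Ptprc, Adgre1 and C1qa among them, and the list summed to 5.64 CPM in FGF9-treated and 13.6 CPM in control feeder cells. Of 7 Leydig cell genes 5 had no UMI, and the list summed to 0.627 and 2.27 CPM. Of 8 endothelial genes 6 had no UMI, Cdh5, Kdr and Emcn among them, and the list summed to 33.2 CPM in FGF9-treated and 36.4 CPM in control, of which Egfl7 made 32.6 and 34.1 CPM. Of 7 peritubular myoid genes Myh11, Actg2 and Cnn1 had no UMI, but the list summed to 68.9 CPM in FGF9-treated and 68.2 CPM in control feeder cells, against 9.02 and 7.70 CPM in germ cells. Its other members were Acta2, Des (13.2 and 6.82 CPM), Smtn (13.8 and 15.9 CPM) and Tagln (26.3 and 2.27 CPM), and 97.6% of the FGF9-treated Tagln UMIs came from 1 cell. Of 11 Sertoli genes 4 had no UMI in either library, Dhh and Cldn11 among them, and Amh and Wt1 had 1 control UMI each. The Sertoli list summed to 198 CPM in FGF9-treated and 225 CPM in control. Most of this came from Sox9 (142 and 171 CPM) and Clu (52.0 and 40.9 CPM). Sox9 was found in 46 of 54 FGF9-treated and 18 of 23 control cells. The 5 sex chromosome genes Xist, Ddx3y, Eif2s3y, Kdm5d and Uty summed to 2.51 CPM in FGF9-treated and 2.27 CPM in control feeder cells, against 169 and 171 CPM in germ cells, and each had at most 1 UMI per library in the feeder cells.

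Germ cell RNA was a small part of the feeder counts. Over 10 germ genes other than Ddx4 and Dazl, feeder CPM was 1.44% of germ CPM in the FGF9-treated and 2.69% in the control library (from 47 and 36 UMIs). In marked cells the same genes stood at 41.6% and 65.0% of the germ level.

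The fibroblast programme is given as a description, since the cells were chosen by their expression. Over both libraries 16.3% of 17330 genes were at least 2-fold higher in feeder than in germ cells with an interval that left out equality. Among 20 genes with the highest ratio at 200 CPM or more were Emp1, a membrane protein of the PMP22 family (6401-fold), the tetraspanin-like Tm4sf1 (4715-fold), Ptn (4108-fold), Dcn, Bgn, the chemokine Ccl2, Col6a1, Col3a1, the actin-binding Cald1, the adhesion receptor Vcam1, Mmp3 and Col1a2. The annexin Anxa1, the calcium-binding S100a4 and the actin-sequestering Tmsb4x were in the same group. Of 14 collagen genes with enough UMIs for this comparison 12 were higher in feeder cells and 1 was lower. The counts were 22 of 28 for matrix glycoproteins and proteoglycans and 14 of 19 for collagen processing. Spp1 (osteopontin), a secreted glycoprotein that binds integrins and CD44, was the most abundant matrix transcript, with 3906 CPM in FGF9-treated and 2992 CPM in control feeder cells. Its level differed widely between cells, from 0 to 22522 CPM (median 2184) in FGF9-treated and from 0 to 14978 CPM (median 360) in control. The chaperone Serpinh1, which folds procollagen, had 600 CPM in FGF9-treated and 591 CPM in control, and Pcolce, which enhances procollagen cleavage, had 932 and 1233 CPM. The cathepsin Ctsl (2978 and 3196 CPM) led the proteases, and the metalloproteinase inhibitors Timp1 (773 and 858 CPM), Timp2 (689 and 1021 CPM) and Timp3 (375 and 605 CPM) followed.

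Between the treatments 8201 genes had at least 20 UMIs over both sums of feeder cells, and their median log2 ratio of FGF9-treated over control was -0.035. A gene was called when it differed at least 2-fold with an exact conditional binomial 95% interval that left out equality. On this rule 340 genes (4.15%) were higher and 303 (3.69%) lower in FGF9-treated feeder cells. Scaling by edgeR TMM factors instead of total UMIs moved every ratio up by 0.12 and gave 424 higher and 211 lower. The widest group difference was in the cell cycle.

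G2/M genes, which drive or mark entry into mitosis, were higher in FGF9-treated feeder cells for all 18 genes of the list, with a median log2 ratio of 3.67 beside -0.035 over all genes tested. Mki67, a protein of mitotic chromosomes and the usual proliferation marker, had 195 UMIs in 12 of 54 FGF9-treated feeder cells (122 CPM) and 0 UMIs in 23 control cells. By counting error alone that 0 allows up to about 13.0% of such cells to hold a UMI. This limit is 3 over 23 cells, an approximation and not the exact interval used elsewhere. The 0 sets no limit on cells that express Mki67 at a low level. Mki67 was at least 17.9-fold higher, against a floor of 3 UMIs over the control sum. Top2a, the topoisomerase that untangles replicated DNA, had 219 CPM in FGF9-treated and 11.4 CPM in control (log2 ratio 4.27, interval 3.03 to 5.90). Ube2c, the ubiquitin-conjugating enzyme of the anaphase-promoting complex, had 221 UMIs (138 CPM) and 1 UMI (2.27 CPM), a log2 ratio of 5.93 with an interval of 3.43 to 11.24. Cenpa, the centromeric histone, had 311 and 2 UMIs (log2 ratio 5.42, interval 3.56 to 8.47). In germ cells the same 18 genes had a median log2 ratio of 0.62.

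S phase genes moved the same way. Of 16 with enough UMIs 14 were higher and 0 lower, with a median log2 ratio of 2.13. The count higher was 9 of 16 by the mean of per-cell CPM, 9 of 17 with all feeder cells, doublets included (median 1.09), 6 of 11 in cells under 2.5 times the median UMIs of kept barcodes and 8 of 12 after thinning to 10000 UMIs, with 0 lower in each. After that thinning 23 of 52 FGF9-treated cells (44.2%, interval 30.5 to 58.7) held at least 3 of the 18 S phase genes. The control count was 7 of 21 (33.3%, interval 14.6 to 57.0), and the intervals overlap. Cells with 9 or more S phase genes numbered 10 in FGF9-treated and 0 in control. Rrm2, the small subunit of ribonucleotide reductase, had 65.2 CPM in FGF9-treated feeder cells and 2.27 CPM (1 UMI) in control feeder cells, a log2 ratio of 4.84 with an interval of 2.33 to 10.16. The PCNA-associated factor Pclaf had 113 CPM and 2.27 CPM (1 UMI), with an interval of 3.14 to 10.95 for the ratio, and the thymidylate synthase Tyms had 128 and 27.3 CPM. Pcna itself, the replication clamp, was 126 and 81.9 CPM and was not called. At 20 or more UMIs, none of 17 growth arrest and p53 target genes was called in either direction. Over all 8201 genes tested 4.15% were called higher and 3.69% lower, so 0 calls in a list this short say little. Cdkn1a, the inhibitor p21, was abundant in both libraries, with 1446 CPM in FGF9-treated and 1558 CPM in control feeder cells, against 22.8 and 15.6 CPM in germ cells.

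The G2/M signal lay in a minority of cells. Of 54 FGF9-treated feeder cells 24 held a UMI of at least 3 of the 18 genes and 10 held 14 or more, with 18 of 18 in 4 cells. Of 23 control cells 2 held at least 3, and the highest held 7. After each cell was thinned to 10000 UMIs, which left out 2 cells per library, 17 of 52 FGF9-treated cells (32.7%, interval 20.3 to 47.1) and 2 of 21 control cells (9.52%, interval 1.17 to 30.4) held at least 3, and these intervals overlap. At 9 or more genes the thinned counts were 10 FGF9-treated and 0 control cells. Of the 54 FGF9-treated cells 19 held over 2.5 times the median UMIs of all kept barcodes, against 0 of 23 control cells, and among cells under that depth the 9 G2/M genes left to test had a median log2 ratio of 3.05. The 24 FGF9-treated cells were deeper than the other 30, with median UMIs of 32935 and 21384.5, and held 0 to 5 Ddx4 plus Dazl UMIs (median 1), far under the marked doublets. At the pooled germ share, germ RNA would bring 2.35 CPM of Mki67 and 5.21 CPM of Top2a to the FGF9-treated feeder sum, beside 122 and 219 CPM measured. Both control cells with at least 3 genes had mitochondrial shares of 11.6% or more, beside a median of 4.05% in the other 21, and they held 1 and 6 Ddx4 plus Dazl UMIs.

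**Figure D2:**
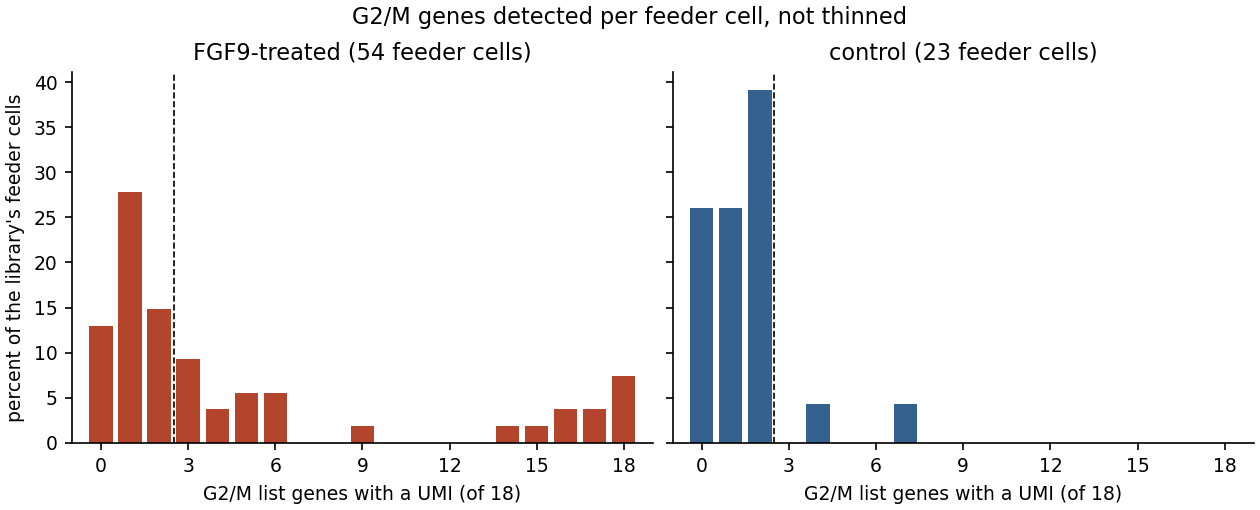
Share of feeder cells (percent, vertical) by the number of 18 G2/M list genes with a UMI (horizontal), FGF9-treated on the left (54 cells) and control on the right (23 cells), not thinned. The dashed line separates cells with under 3 genes. In the FGF9-treated library 10 cells form a separate group at 14 to 18 genes, and no control cell passes 7.

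Promoters of 3 G2/M genes are shown as RefSeq gives them on GRCm38.p6, from 150 bases before the transcription start to the base before it. Capitals mark matches on either strand to the CCAAT box (CCAAT or ATTGG) and to the cell cycle homology region (TTTGAA or TTCAAA), 2 short motifs known from mitotic gene promoters, the CCAAT box from many others too. The matches do not overlap each other. Ube2c lies at chr2:164769779-164769928 on the plus strand, Top2a at chr11:99024190-99024339 and Cdk1, the mitotic kinase (113 CPM in FGF9-treated and 27.3 CPM in control feeder cells, log2 ratio 2.05), at chr10:69352913-69353062, both on the minus strand.
Ube2c: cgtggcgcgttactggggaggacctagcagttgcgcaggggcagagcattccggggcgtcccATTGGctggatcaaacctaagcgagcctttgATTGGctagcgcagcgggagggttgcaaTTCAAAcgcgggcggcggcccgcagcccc
Top2a: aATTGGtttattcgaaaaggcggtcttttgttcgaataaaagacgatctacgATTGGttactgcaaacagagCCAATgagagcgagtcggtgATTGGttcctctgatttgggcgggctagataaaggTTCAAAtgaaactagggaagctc
Cdk1: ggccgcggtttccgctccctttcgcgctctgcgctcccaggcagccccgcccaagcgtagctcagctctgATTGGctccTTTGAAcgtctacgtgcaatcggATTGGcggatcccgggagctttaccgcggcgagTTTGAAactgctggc
The stretch before Ube2c holds 2 CCAAT boxes and 1 homology region, that before Top2a holds 4 and 1, and that before Cdk1 holds 2 and 2. In the 250 bases before the start, 14 of the 16 G2/M genes matched by symbol (87.5%) hold a CCAAT box, beside 33.8% of all 32851 promoters in the table. A homology region is in 7 of the 16 (43.8%), beside 15.99% of all promoters. Of 17 promoters of S phase genes 13 hold a CCAAT box (76.5%), 2 a homology region (11.8%) and 6 an E2F motif (TTTCCCGC, TTTGGCGC or TTTCGCGC on either strand), beside 1.53% of all. A match is a description of the letters and not a measured binding site. The shares were taken over whole lists without use of the counts, so they say nothing about the feeder cells.

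Targets of FGF and ERK signalling were higher in part. Of 16 list genes with enough UMIs 5 were higher and 0 lower, beside 4.15% higher and 3.69% lower over all genes tested. The list had a median log2 ratio of 0.57. Ccnd1 (cyclin D1), which carries growth factor signals into the cell cycle, was found in all 54 FGF9-treated feeder cells and in 14 of 23 control cells, with 800 CPM in FGF9-treated and 136 CPM in control (log2 ratio 2.55, interval 2.18 to 2.95). Per cell it ran from 21.5 to 3033 CPM with a median of 458 in FGF9-treated cells, and from 0 to 643 CPM with a median of 65.2 in control cells. The ranges overlap, and 9 control cells had no UMI.

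Etv1 separated the libraries more sharply. It was found in 36 of 54 FGF9-treated and in 2 of 23 control feeder cells, with 97 UMIs (60.8 CPM) and 2 UMIs (4.55 CPM), a log2 ratio of 3.74 with an interval of 1.85 to 6.81. Thinned to 10000 UMIs, 25 of 52 FGF9-treated feeder cells (48.1%) and 2 of 21 control feeder cells (9.52%) held an Etv1 UMI, against 0.173% and 0.364% of germ cells. In germ cells Etv1 stood at 0.236 CPM with FGF9 and 0.250 CPM in control.

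Dusp6 was found in 36 FGF9-treated and in 2 control feeder cells, with 41.4 CPM and 4.55 CPM (log2 ratio 3.18, interval 1.27 to 6.26). In germ cells Dusp6 was higher as well, with 52.2 CPM in FGF9-treated and 5.62 CPM in control, and at the pooled germ share it would add 0.750 CPM to the FGF9-treated feeder sum. Etv4 had 25 UMIs in 17 FGF9-treated feeder cells and 0 in control cells, at least 2.30-fold higher against the floor; germ RNA at the pooled share would bring 0.381 CPM, beside 15.7 CPM measured. Fosl1, an AP-1 subunit, had 57.0 CPM in FGF9-treated and 25.02 CPM in control, and its call was lost under 7 of 13 alternatives (log2 ratio 0.43 in cells under 2.5 times the median UMIs, 0.69 without cells holding 3 or more G2/M genes). In each of these 2 cell sets 3 genes of the list were called higher. Etv5, with 10 UMIs in FGF9-treated and 1 UMI in control (6.27 and 2.27 CPM, log2 ratio 1.46 with an interval of -1.35 to 6.90), and Spry4, an inhibitor of receptor kinase signalling, with 2 and 1 UMIs, had too few to compare. The immediate early genes Egr1 (254 and 232 CPM), Fos (1042 and 767 CPM) and Ier2 (303 and 293 CPM) were not called.

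The receptor side was narrow. Fgfr1 had 178 CPM in FGF9-treated and 275 CPM in control feeder cells (log2 ratio -0.63, interval -0.94 to -0.31), while Fgfr2 had 2 UMIs and 1 UMI and Fgfr3, Fgfr4, Kl and Klb had none. Among heparan sulphate proteoglycans, which present FGFs to their receptors, Sdc4 (267 and 334 CPM) and Sdc2 (152 and 125 CPM) were most abundant, and the glypican Gpc1 (9.40 and 45.5 CPM) was lower in FGF9-treated cells. The glypican Gpc6 (20.1 and 45.5 CPM) and the syndecan Sdc1 (28.2 and 59.1 CPM) were also called lower, but Gpc6 lost the call under 4 and Sdc1 under 7 of 13 alternatives, which for Sdc1 included TMM and DESeq2 scaling.

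**Figure D3:**
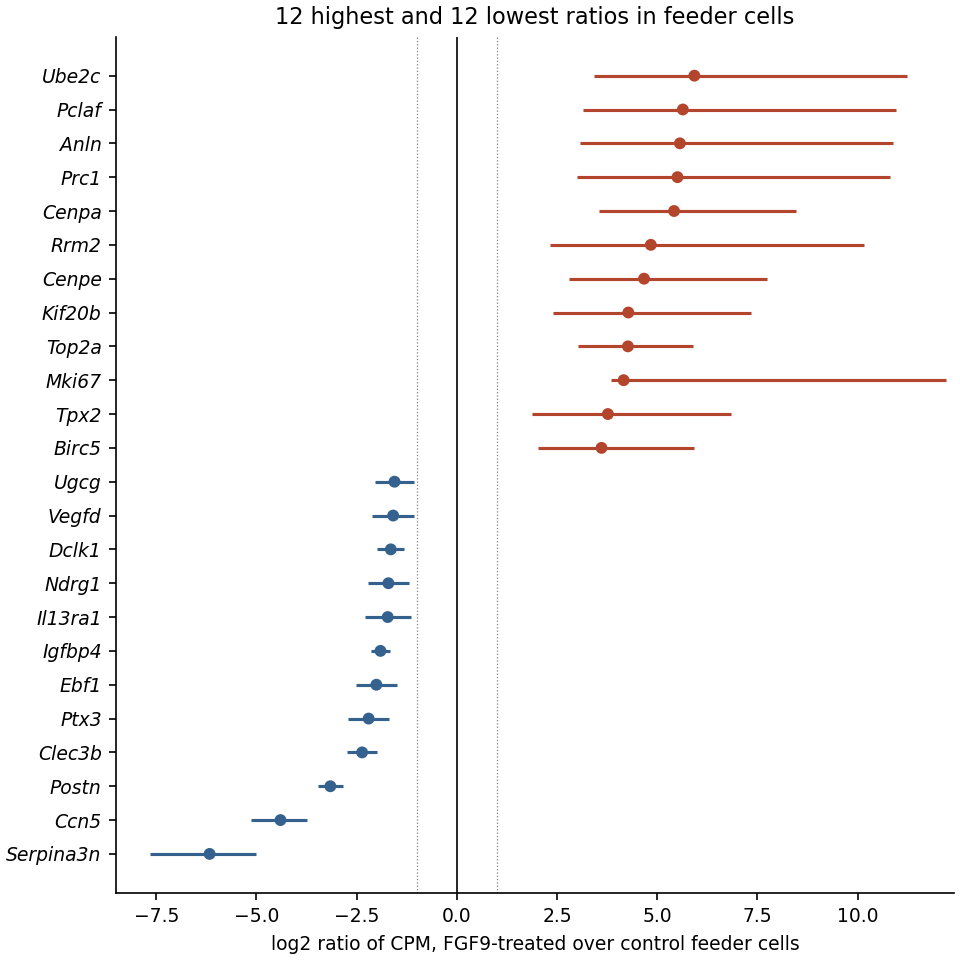
Log2 ratios of FGF9-treated over control CPM in feeder cells (horizontal) for the 12 highest and 12 lowest genes with at least 100 UMIs, with exact 95% counting intervals. The upper limit for Mki67 runs off the plot because control cells had 0 UMIs, and its point is a lower bound. The 12 highest (Ube2c 5.93 to Birc5 3.61) are genes of the cell cycle, and the lowest are Serpina3n (-6.17), Ccn5 (-4.40) and Postn (-3.16).

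Among the 12 lowest ratios were matrix and secreted proteins. Postn (periostin), a matrix protein that binds collagen, had 77.1 CPM in FGF9-treated and 687 CPM in control feeder cells (log2 ratio -3.16, interval -3.47 to -2.85), and was found in 29 of 54 and 15 of 23 cells. Serpina3n, a secreted protease inhibitor, had 6 UMIs in 6 FGF9-treated cells (3.76 CPM) and 119 UMIs in 10 control cells (271 CPM). Ccn5, a matricellular protein, had 13.8 and 291 CPM, and 47.7% of its control UMIs came from 1 cell. The tetranectin gene Clec3b had 68.9 CPM in FGF9-treated and 355 CPM in control, and was found in 18 of 54 and 18 of 23 cells. The long pentraxin Ptx3 had 37.6 and 173 CPM, and the transcription factor Ebf1 had 40.7 and 164 CPM.

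The collagens as a group moved less. Of 12 tested 0 were higher and 3 lower (Col5a2, Col11a1 and Col12a1), with a median log2 ratio of -0.63. The abundant chains fell short of the 2-fold rule, with log2 ratios of -0.56 for Col3a1 (interval -0.68 to -0.44), -0.56 for Col1a1 and -0.91 for Col1a2. These chains also entered the choice of the 77 cells. Lox, the lysyl oxidase that cross-links collagen, had 22.6 CPM in FGF9-treated and 97.8 CPM in control (log2 ratio -2.12), and was the only gene called of 15 in collagen processing. Of 18 proteases and inhibitors 1 was higher and 4 lower, beside 4.15% higher and 3.69% lower over all genes tested. The gelatinase Mmp2 had 35.7 and 100 CPM and the aggrecanase Adamts5 13.2 and 54.6 CPM. The stromelysin Mmp3 went the other way, with 304 CPM in FGF9-treated and 105 CPM in control, though 60.9% of its control UMIs came from 1 cell. None of 11 basement membrane genes was called, which at those shares says little for so short a list. The receptor Pdgfrb, a fibroblast surface marker, had 13.2 CPM in FGF9-treated and 45.5 CPM in control.

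**Figure D4:**
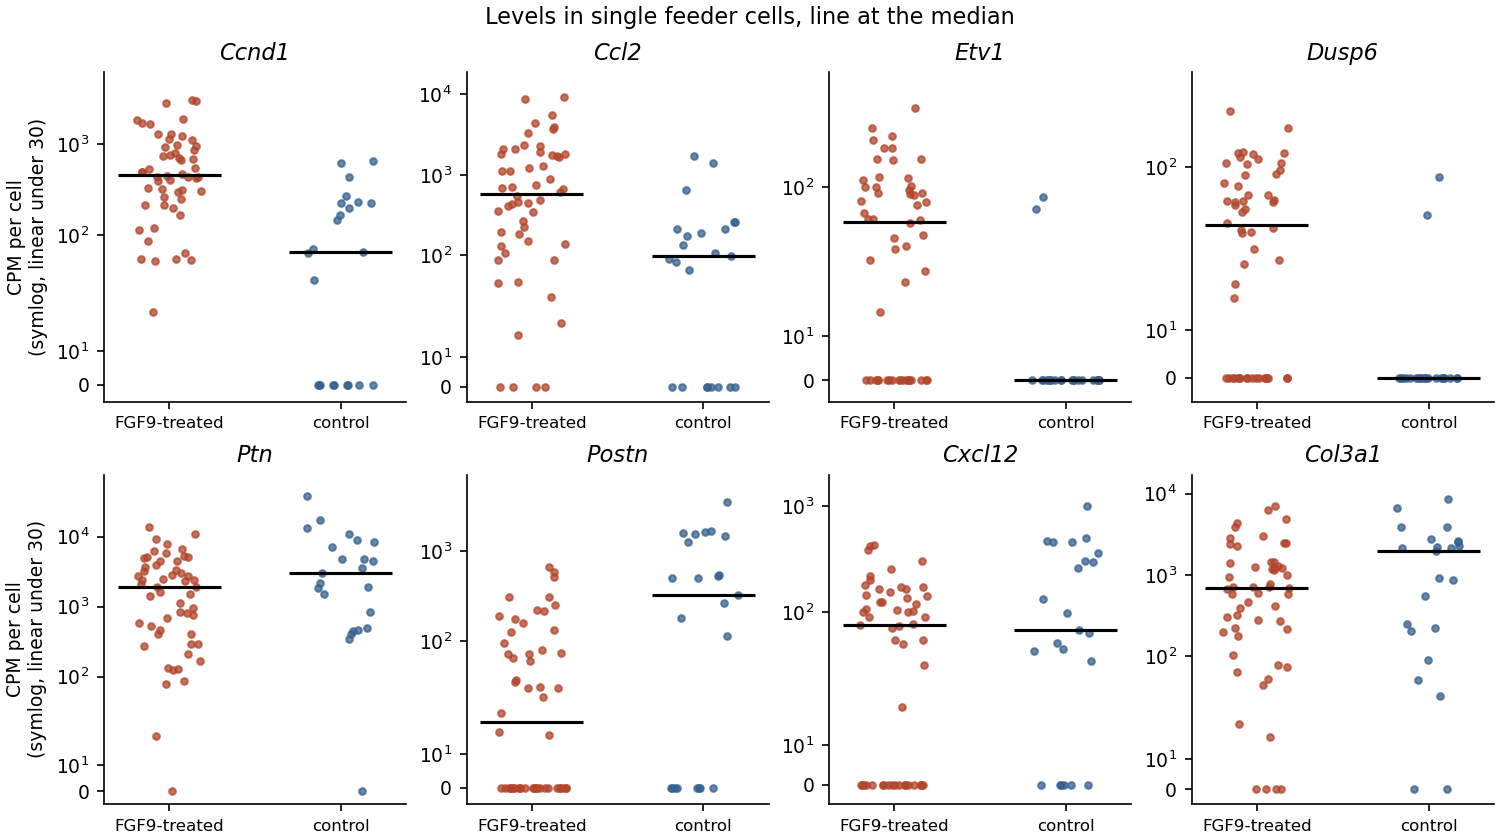
CPM of 8 genes in each of 54 FGF9-treated (left) and 23 control (right) feeder cells, on an axis that is linear under 30 CPM and logarithmic above, with a line at the median. Etv1 and Dusp6 have control medians of 0, Postn has medians of 19.6 in FGF9-treated and 321 in control cells, and Cxcl12 has medians of 75.6 and 68.0 with its highest values in control cells.

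Which ligands the feeder cells offered to germ cells was read from a list of 99 ligand genes. Of these 40 had enough UMIs to compare, 4 were higher and 9 lower in FGF9-treated feeder cells, and the median log2 ratio was 0.077. Over all genes tested 4.15% were higher and 3.69% lower. After thinning to 10000 UMIs 27 ligands were found in at least 25% of FGF9-treated and 23 in at least 25% of control feeder cells.

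Ptn (pleiotrophin), a heparin-binding growth factor, was the most abundant. It had 2422 CPM (interval 2346 to 2500) in FGF9-treated and 5837 CPM (interval 5614 to 6068) in control feeder cells, a log2 ratio of -1.27, and at most 1.02 CPM in germ cells. It was found in 53 of 54 and 22 of 23 cells. The medians per cell were nearer than the sums, 1888 CPM in FGF9-treated and 3025 CPM in control, with highest values of 13763 and 38495 CPM, and 25.9% of the control UMIs came from 1 cell. Ptprz1, one of its receptors, had 0.598 CPM in FGF9-treated and 1.44 CPM in control germ cells. The cytokine Mif (1578 and 1099 CPM) came next, but germ cells also held it (740 and 459 CPM), and its receptor genes Cd74 and Cd44 were under 1 CPM in germ cells.

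Several ligands whose receptors germ cells transcribe were present at moderate levels. Igf1 had 26.9 CPM in FGF9-treated and 59.1 CPM in control feeder cells, and its receptor Igf1r had 137 and 117 CPM in germ cells. Kitl (stem cell factor) had 119 and 88.7 CPM in feeder cells, was found in 31 of 52 FGF9-treated and 12 of 21 control cells after thinning (59.6% and 57.1%), and was not called. Its receptor Kit, a mark of differentiating spermatogonia, had 3.07 CPM in FGF9-treated and 13.4 CPM in control germ cells. Inhba, the activin A subunit, had 31.3 and 13.6 CPM in feeder cells, and the activin receptor Acvr2b had 77.4 and 97.8 CPM in germ cells. Gas6, a ligand of the TAM receptors, had 176 and 134 CPM in feeder cells, with 12.8 and 20.8 CPM of its receptor Tyro3 in germ cells.

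Transcripts of the factors classically supplied to these cultures, as counted against mm10, were scarce in the feeder cells. Their proteins were not measured. Gdnf had 10.7 CPM in FGF9-treated and 6.82 CPM in control, with its receptor Gfra1 at 57.5 and 15.7 CPM and Ret at 102 and 33.7 CPM in germ cells. Fgf2 had 3.76 and 4.55 CPM and Lif 3.76 and 4.55 CPM in feeder cells, and Lifr had 18.9 and 17.6 CPM in germ cells. After thinning, 3 of 52 FGF9-treated and 2 of 21 control feeder cells held a Gdnf UMI. Csf1, a ligand given a part in spermatogonial self-renewal, had 108 and 95.5 CPM in feeder cells with 0.866 and 1.05 CPM in germ cells, and Csf1r was under 0.1 CPM in germ cells. Fgf7 had 56.4 and 34.1 CPM in feeder cells, and its receptor Fgfr2 had 1.18 and 1.44 CPM in germ cells.

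Of the 4 ligands called higher 3 bind the EGF receptor, a grouping made after their values were seen. Areg (amphiregulin) had 112 CPM in FGF9-treated and 20.5 CPM in control feeder cells (log2 ratio 2.45, interval 1.497 to 3.61), Ereg (epiregulin) had 85.2 and 25.02 CPM (log2 ratio 1.77, interval 0.88 to 2.80), and Hbegf had 52.6 and 15.9 CPM (log2 ratio 1.72, interval 0.62 to 3.08). Without cells holding 3 or more G2/M genes Ereg passed the rule and Areg (-0.44) and Hbegf (0.043) did not. Areg and Hbegf were in under 50% of cells in both libraries, 23 and 16 of 54 FGF9-treated and 4 and 6 of 23 control. Germ cells of both libraries held at most 0.346 CPM of Egfr, and feeder cells 15.7 CPM with FGF9 and 11.4 CPM in control. Of other EGF receptor ligands in the list, Btc had 10 UMIs in FGF9-treated and 0 in control, Egf 0 and 1, and Tgfa none. The ephrin Efnb2 was the fourth, with 48.3 CPM in FGF9-treated and 13.6 CPM in control. Among the lower ligands, Psap (prosaposin) had 233 and 507 CPM, Vegfd had 43.9 and 132 CPM and Sema3c had 23.8 and 75.1 CPM.

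**Figure D5:**
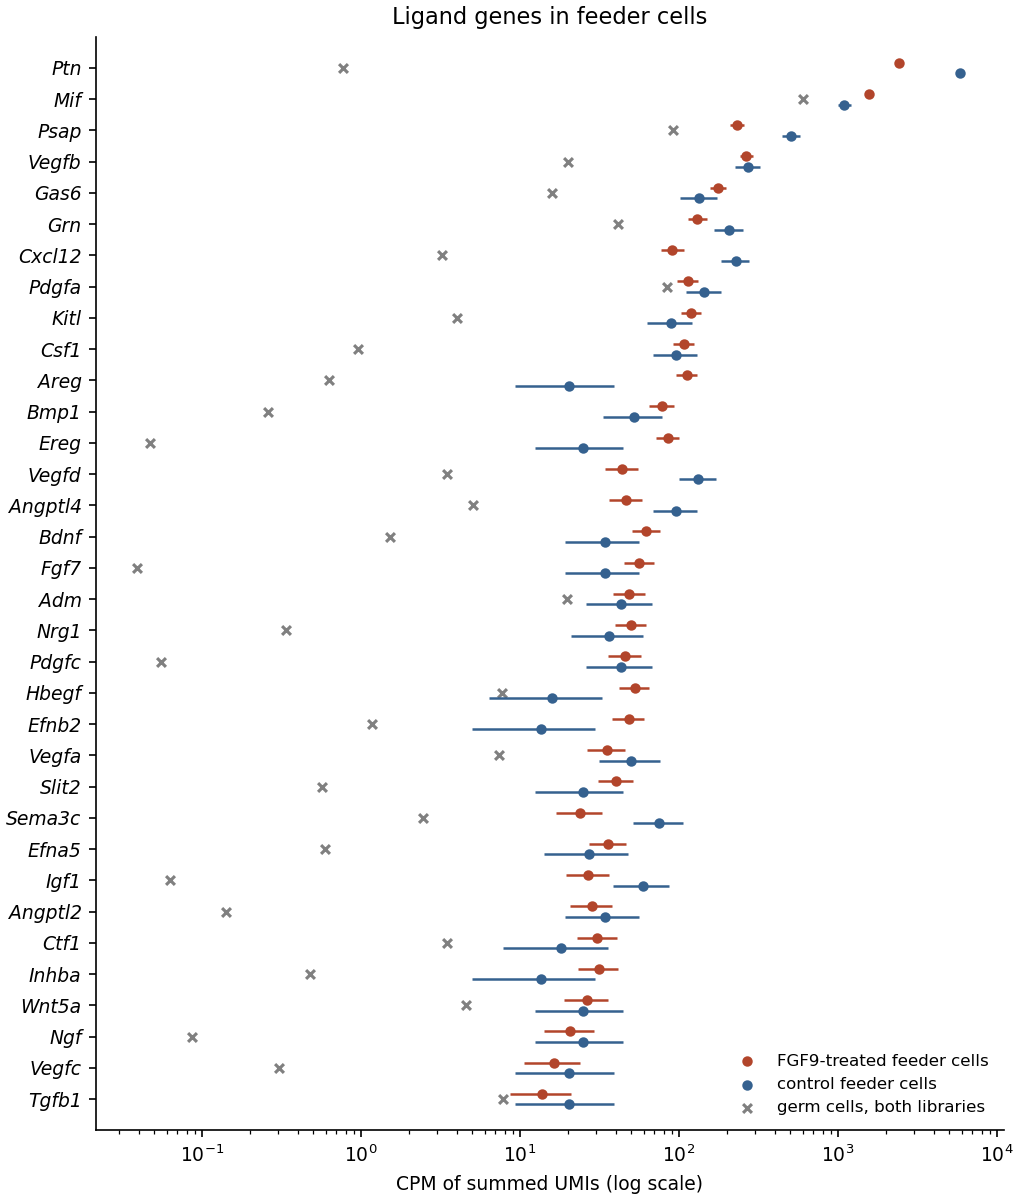
CPM on a log scale (horizontal) of the 34 ligand genes with a UMI in at least 25% of the 77 feeder cells, FGF9-treated above control for each gene, with exact Poisson 95% intervals; crosses are germ cells of both libraries together. Ptn leads in both (2422 CPM FGF9-treated, 5837 CPM control), and Mif, Pdgfa and Psap are the ligands with the nearest germ cell levels among the abundant ones.

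Chemokine and cytokine genes went both ways. Of 11 tested 5 were higher, 2 lower and 4 not called, beside 4.15% higher and 3.69% lower over all genes tested. Their median log2 ratio was 0.52. Without cells holding 3 or more G2/M genes 2 of 9 were higher and 2 lower, with a median of -0.14. Ccl2, which attracts monocytes, had 1277 CPM in FGF9-treated and 300 CPM in control feeder cells (log2 ratio 2.09, interval 1.83 to 2.35), was found in 50 of 54 and 15 of 23 cells, and had medians per cell of 580 and 98.99 CPM. Ccl9 had 50.8 and 9.10 CPM and the alarmin Il33 had 51 UMIs and 1 UMI (log2 ratio 3.81, interval 1.27 to 9.14), the FGF9-treated UMIs from 12 cells. Cxcl12, a ligand of Cxcr4, had 90.9 CPM in FGF9-treated and 227 CPM in control (log2 ratio -1.32, interval -1.70 to -0.94), and Cxcr4 had 2.77 and 0.767 CPM in germ cells. Of 11 growth factor binding proteins and antagonists 0 were higher, 3 lower and 8 not called, beside the same shares over all genes tested. Igfbp4, which binds insulin-like growth factors, had 176 and 660 CPM (log2 ratio -1.91, interval -2.15 to -1.66), Igfbp7 had 69.6 and 189 CPM and the Wnt antagonist Sfrp1 had 14.4 and 47.8 CPM.

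The calls were also taken without the 24 FGF9-treated and 2 control feeder cells that held 3 or more G2/M genes, a choice made after seeing the data. Ccnd1 (log2 ratio 1.63), Etv1 (3.88), Dusp6 (3.15), Ccl2 (2.02), Ereg (1.47) and Efnb2 (2.12) stayed higher and Postn (-2.60), Serpina3n (-5.42) and Igfbp4 (-1.99) stayed lower. Areg (-0.44), Hbegf (0.043), Mmp3 (0.50), Cxcl12 (-0.72) and Ptn (-0.78) no longer passed the rule. Without the cells holding 3 or more G2/M genes, 6266 genes could be tested in place of 8201. A gene left with too few UMIs was not tested and could not keep its call. The genes called higher numbered 114 in place of 340, and 59 of these were among the 340. Genes called lower numbered 327 in place of 303, and 154 of these were among the 303. In the feeder cells of each library that were under 2.5 times the median UMIs of all kept barcodes, Ptn had a log2 ratio of -0.88 and Hbegf of 0.76. Each gene was also counted without the 1 feeder cell per library that held most of its UMIs, with the totals kept. The median log2 ratio over all genes then rose from -0.035 to 0.12. In this setting Ptn stood at -0.99, Psap at -0.83, Igf1 at -0.56 and Etv4 at 0.95, and none of these passed the rule. Ptn missed it by less than that rise.

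The feeder cells also differed among themselves within each library. Over the 82 unmarked cells, CPM of Col1a1 plus Col1a2 plus Col3a1 went with CPM of Ptn (Spearman's rho 0.70). It ran against the summed CPM of Ddit3, Hmox1 and Tnfrsf12a (rho -0.52). The second relation was -0.55 over 57 FGF9-treated and -0.56 over 25 control cells. These values describe cells of 1 library each, which share a culture. Ddit3, Hmox1 and Tnfrsf12a were chosen after their values were seen, so the relation is a description only. Collagen CPM had no such relation with depth (rho -0.08).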

How the data were processed

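Gene expression was measured in 2 libraries of cultured germ cells by droplet 3' sequencing, 1 per treatment. The deposited matrices hold raw UMI counts per gene and barcode (unit: counts), which the authors made with Cell Ranger (3.1.0 in the matrix header) against mm10; the labels name Seurat 3.1 for later steps. The KIT antibody tag of the study was not analysed here, and no cell type annotation was used. UMIs were summed per library over 77 feeder cells and over germ cells and divided by the group's total (CPM). CPM have exact Poisson, ratios exact conditional binomial and shares exact binomial (Clopper-Pearson) 95% intervals, and a gene with 0 UMIs on one side was set to a floor of 3 counts over the sum. The ratio and its interval were tested on simulated data. Doublets were marked from Ddx4 plus Dazl; no doublet caller was run, and doublets of 2 feeder cells were not sought.

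Named genes followed a rule: the markers, the 20 genes with the highest feeder over germ ratio at 200 CPM or more, up to 4 genes per list by level and 4 by ratio, the 12 highest and 12 lowest ratios with 100 UMIs and 50 CPM, and ligands in 25% of cells with their receptors; further list members are named with their values. The cells, lists and rule were chosen with earlier results of these data known. Alternatives covered thresholds, cell sets, scaling (edgeR 4.0.16 TMM and DESeq2 1.42.0 size factors), filters, thinning and subtraction of germ RNA. Python 3.11.15, numpy 2.4.6, scipy 1.17.1, pandas 2.3.3 and R 4.3.3 were used. GENCODE vM21 held 32158 of 32285 gene identifiers. Promoters came from RefSeq.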

Additional observations from a re-analysis of the deposited data

Results flagged for a closer look

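Barcodes outside the comparisons carried the feeder signal as well: with under 2000 genes, 7 FGF9-treated and 2 control barcodes held at least 40 UMIs of Vim plus S100a6. They held 1871 to 7278 UMIs in the FGF9-treated and 2870 to 5552 UMIs in the control library, with at most 1 Ddx4 plus Dazl UMI. The highest sum in kept barcodes that were not feeder cells was 22 UMIs.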

How the results depend on the processing

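No paired analysis was possible because each treatment has 1 library, and for the same reason no replicate could be left out. The feeder share moved past its interval only where kept barcodes were limited to 10% mitochondrial UMIs (1.97% FGF9-treated, 1.09% control), a limit that removes other barcodes from the denominator. The doublet counts were 5 or 6 in each library under all 3 other thresholds. The counts of 340 higher and 303 lower genes changed by over 1.5 times as follows: 165 higher among cells under 2.5 times the median UMIs; 91 higher and 48 lower at 100 UMIs (3213 genes tested); 144 higher and 152 lower after thinning to 10000 UMIs; 545 lower with all 94 feeder cells, doublets included; 196 lower with DESeq2 factors; 142 lower when each gene was counted without the cell holding most of its UMIs; and 114 higher without cells holding 3 or more G2/M genes. That last setting, chosen after seeing the data, left 6266 genes to test. It turned the median log2 ratio of G2/M genes to -0.17 (1 gene left to test) and of S phase genes to -0.60 (4 genes). These turns came by construction, since the setting removes cells by G2/M transcripts. The median of chemokines and cytokines went to -0.14 (9 genes), and the cause was not tested. Ligands called lower numbered 4 in place of 9 with all 94 feeder cells. Leaving out cells with 3 or more G2/M genes also turned single genes: Areg to -0.44, Rrm1 to -0.73 and the germ marker Uchl1 to 0.043. The count of 142 lower left out 1 cell per library for each gene and kept the totals, which raised the median over all genes to 0.12. Thinned to 5000 UMIs, 11 ligands passed 25% of FGF9-treated and 14 of control cells. Of 76 named genes called, 47 stayed called under each of 13 alternatives that gave a value and 29 lost the call under at least 1. Some of the 47 had no value where a loss was most likely. Mki67 and Top2a had none without cells holding 3 or more G2/M genes, and Tagln none without its top cell. The median germ share was 0.681% in FGF9-treated and 2.24% in control cells. With 23 control cells, a difference at a few CPM was not detectable at this depth: 1 control UMI is 2.27 CPM.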
